A study of Arabidopsis thaliana with 5 samples.

Results

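Intergenic R-loop peaks in the chromosome arms of Arabidopsis thaliana are described here: DRIP peaks whose centre lay more than 1 kb from every annotated gene or pseudogene, of any type, and more than 2.5 Mb from a fixed centromere position on its chromosome. Those positions were near 15 Mb on chromosome 1, 4 Mb on chromosome 2, 14 Mb on chromosome 3, 4 Mb on chromosome 4 and 12 Mb on chromosome 5 (rounded). The rule used position only and no measured value. DRIP replicate 1 held 784 such peaks of 47291 (1.66%) and DRIP replicate 2 held 608 of 39888 (1.52%), together 1392 of 87179.

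The study mapped R-loops by DNA:RNA immunoprecipitation (DRIP) in seedlings of the wild-type Columbia ecotype, all 12 days old. Its 5 samples are 2 DRIP samples, 2 DRIP samples digested with RNase H, which removes the RNA of a hybrid, and 1 input. The RNase H and input samples were not analysed here, so no peak is set against its level without hybrids. Whole seedlings were used, so a strong hybrid in few cells and a weak one in many cannot be told apart, and peak lists hold no expression values against which the tissue label could be checked.

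There are 4 peak lists, 1 for each DRIP replicate and 2 strand lists, named w and c and recorded under DRIP replicate 1, so their overlap with that replicate is not independent. The names denote the 2 DNA strands, and it is not settled here which one the RNA pairs with. Peak folds are the authors' own MACS2 enrichments and rank peaks only within their list. The lists carry no read totals, so depth is unknown. Only labels mark the replicates as such, and the spread between them may therefore be technical. No p-value is given, because the peaks of 1 library are not replicates of a condition and there is 1 group. Ranges after a share are 95% Wilson intervals; they cover counting error alone, since PCR-amplified reads with no molecular identifiers do not count molecules.

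An R-loop forms when RNA pairs with one strand of a DNA duplex and leaves the opposite strand unpaired, most often where a transcript folds back onto the template behind the polymerase. For that reason genes are where R-loops are usually described. DNA far from annotated genes holds promoters and enhancers at a distance, unannotated transcripts, transposon remnants and simple repeats, and in the compact Arabidopsis genome it makes up a small part of the arms. An antibody-based map reports a hybrid at a site but does not say which transcript formed it.

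Intergenic arm DNA carried few peaks, and fewer the farther it lay from a gene, up to 5 kb. In DRIP replicate 1, peaks covered 2.44% of the 7.79 Mb of arm DNA more than 1 kb from a gene, and in replicate 2 they covered 2.04% (mean 2.24% ± 0.286, SD, n = 2). Inside arm genes the coverage was 15.8% in replicate 1 and 14.3% in replicate 2, and over the first 1000 bp outside genes it was 6.57% and 6.11%. Both replicates thus lay in the same order, and the differences between these classes were many times the spread between replicates. Between 1 and 1.5 kb from a gene the mean coverage was 2.68% ± 0.373, between 1.5 and 2 kb 2.29% ± 0.312, between 2 and 3 kb 1.75% ± 0.161, and between 3 and 5 kb 1.21% ± 0.128 (SD, n = 2). The neighbouring steps from 1 to 2 kb differed by about the spread between replicates, while the ends of this range did not overlap. Beyond 5 kb only 0.102 Mb was left, with 5 peaks in replicate 1 and 4 in replicate 2, and its coverage of 1.48% and 1.498% rests on those few peaks.

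**Figure D1:**
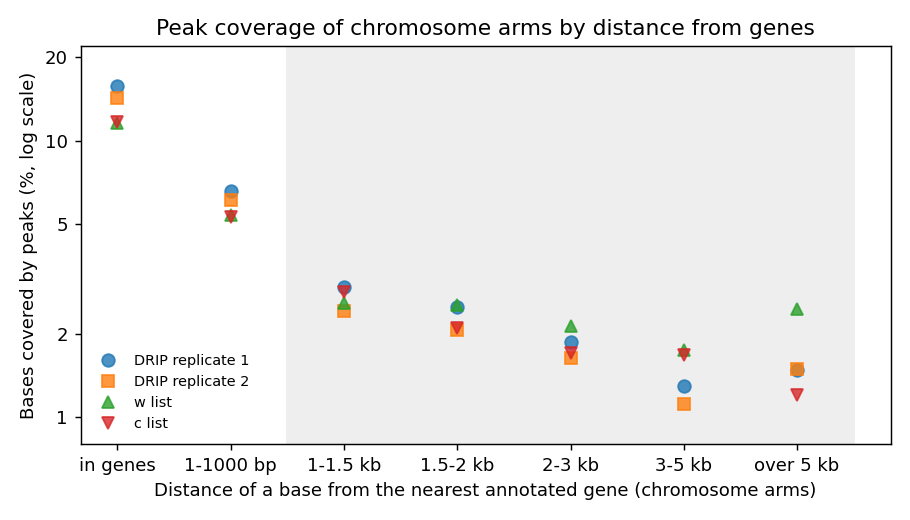
Share of arm bases covered by peaks of each of the 4 lists (percent, log axis) against the distance of the base from the nearest annotated gene; the shaded range is the intergenic DNA described here. Coverage by both DRIP replicates falls from 15.8% and 14.3% in genes to 1.30% and 1.12% at 3 to 5 kb, and both strand lists fall over this range. Beyond 5 kb, where little DNA is left, the DRIP replicates and the w list lie higher than at 3 to 5 kb and the c list lower.

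Most of these peaks stayed near the limit of the rule. Of the replicate 1 peaks, 405 lay 1 to 1.5 kb from a gene, 201 lay 1.5 to 2 kb away, 124 lay 2 to 3 kb away and 49 lay 3 to 5 kb away. In replicate 2 the counts were 309, 154, 103 and 38. The median distance was 1479 bp in replicate 1 and 1494 bp in replicate 2, and the farthest peak lay 6607 and 6605 bp from a gene, at the same site in both. The 3 replicate 1 peaks just inside the 1 kb limit had folds of 3.83, 4.26 and 2.71, and the 3 just outside had folds of 3.59, 2.55 and 2.79. In replicate 2 these were 3.84, 2.45 and 2.56 inside against 2.67, 3.20 and 2.56 outside. A peak on chromosome 2 (8665913 to 8666148 in replicate 1) and one on chromosome 3 (468587 to 468724) fell inside the limit at 1004 and 1005 bp in replicate 1 and outside it, at 999 bp, in replicate 2. Just beyond the limit set on distance from the centromere, in the first 0.1 Mb, the median fold was 2.79 over 33 peaks of replicate 1 and 2.83 over 21 of replicate 2. Just short of it, in the last 0.1 Mb, it was 2.95 over 33 peaks and 3.07 over 28.

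The chromosomes did not carry these peaks evenly. Intergenic arm coverage was 2.91% ± 0.435 on chromosome 3, 2.52% ± 0.303 on chromosome 2, 2.37% ± 0.286 on chromosome 4, 1.87% ± 0.167 on chromosome 5 and 1.86% ± 0.276 on chromosome 1 (SD, n = 2). Chromosome 3 was above chromosomes 1 and 5 in each replicate, at 3.21% against 2.06% and 1.99% in replicate 1 and 2.599% against 1.67% and 1.75% in replicate 2. The 3 highest means lay within about the spread between replicates of their neighbours. Coverage was 2.63% ± 0.308 at 2.5 to 5 Mb from the centromere position and 1.94% ± 0.325 beyond 10 Mb, while genes at those distances were covered 15.3% and 15.13%. Intergenic DNA within 2.5 Mb of the centromere positions, which is not counted among these peaks, was covered 10.4% in replicate 1 and 8.97% in replicate 2.

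Long gene-free stretches held a peak more often, but not more peaks per kb. Peaks of both replicates that overlapped were merged into 841 loci. Of 4621 gaps of over 2 kb between neighbouring genes, 678 (14.7%) held a locus and 124 held more than 1. The share was 6.31% for gaps of 2 to 3 kb, 18.8% for 3 to 5 kb, 28.4% for 5 to 10 kb and 33.3% for the 54 gaps over 10 kb. Per kb of DNA beyond 1 kb from a gene the same classes held 0.151, 0.124, 0.0866 and 0.0618 loci. The nearest gene was protein-coding for 683 loci (81.2%), a pseudogene for 64, a long noncoding RNA gene for 54 and a small RNA gene for 28, and another RNA gene for 12.

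At the median these peaks were slightly weaker, and narrower, than all peaks. The median fold was 2.87 in replicate 1 (quartiles 2.47 and 3.51, range 1.72 to 10.0) and 2.86 in replicate 2 (2.47 and 3.47, range 1.81 to 10.1). All peaks had medians of 3.01 and 2.98, arm peaks in genes 3.11 in both, and intergenic peaks near the centromere positions 2.56 and 2.598. The intergenic arm peaks thus lay between arm gene peaks and pericentromeric intergenic ones in each replicate. Pericentromeric peaks in genes also had lower medians, 2.79 and 2.76. The median width of the intergenic arm peaks was 192 bp in replicate 1 and 219.5 bp in replicate 2, against 240 and 270 bp over all peaks. Pericentromeric intergenic peaks were close to them, at 206 and 222 bp, and arm peaks within 1 kb of a gene had medians of 215 and 245 bp. Only 49 (6.25%) and 39 (6.41%) of the intergenic arm peaks were 500 bp or wider, against 16.3% and 18.7% of all peaks. Of the members, 18.0% in replicate 1 and 18.4% in replicate 2 belonged to the upper 25% of their whole list by fold. The lowest 25% held 26.7% and 26.0% of them, close to the share over all peaks.

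They also stood farther apart. The median distance to the nearest other peak was 1103 bp in replicate 1 and 1232.5 bp in replicate 2, against 465 and 539 bp over all peaks. No other peak lay within 2 kb for 211 members (26.9%) in replicate 1 and 192 (31.6%) in replicate 2, against 12.1% and 15.9% of all peaks. Arm peaks in genes made up 63.3% and 64.0% of the lists, and the rule places members away from genes. Some of this spacing therefore follows from the rule itself. Where the nearest gene was protein-coding, it carried a DRIP peak itself for 72.5% of 636 members in replicate 1 and 64.7% of 493 in replicate 2. Among all 25307 arm protein-coding genes the shares were 67.7% and 62.4%, within 5 percentage points of these.

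Fewer intergenic arm peaks recurred in the other replicate than peaks at large. Of the 784 members in replicate 1, 554 overlapped a peak of replicate 2, or 70.7% (67.4 to 73.7), against 79.5% of all replicate 1 peaks and 80.8% of those in arm genes. Of the 608 members in replicate 2, 563 overlapped a peak of replicate 1, or 92.6% (90.2 to 94.4), against 95.1% of all replicate 2 peaks. The gap between the replicates exceeded that between classes, and replicate 1 has the longer list. With the list cut into 4 parts by rising fold, 38.3%, 67.1% and 86.5% of replicate 1 members in the first 3 parts and all 141 in the last were found again. All peaks of the list had shares of 48.3%, 74.9%, 95.03% and 99.8% in those parts. At equal width the members differed little from arm peaks in genes, with 39.7% against 42.2% under 150 bp, 71.3% against 72.8% from 150 to under 200 bp and 86.7% against 89.3% from 200 to under 300 bp in replicate 1. In replicate 2 those shares were 78.5% against 82.6%, 92.2% against 92.8% and 97.8% against 97.5%. Width and recurrence moved together in both classes, and the part that width plays in the lower share was not tested.

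Of the 841 loci, 542 (64.4%) held a member in both replicates, 230 (27.3%) a peak in replicate 1 only and 45 (5.35%) in replicate 2 only. In another 24 the second replicate had a peak that met the locus but whose own centre missed the rule, 9 with the member in replicate 1 and 15 with it in replicate 2. Chromosomes 1 to 5 held 129, 106, 121, 78 and 108 of the loci in both. Across these 542 loci the folds of the replicates moved together (Pearson r 0.862, Spearman rho 0.779, a description over sites of the same genome and assay), and the median absolute difference was 0.336. Both folds exceeded 4 at 65 loci, 5 at 23 and 6 at 3.

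**Figure D2:**
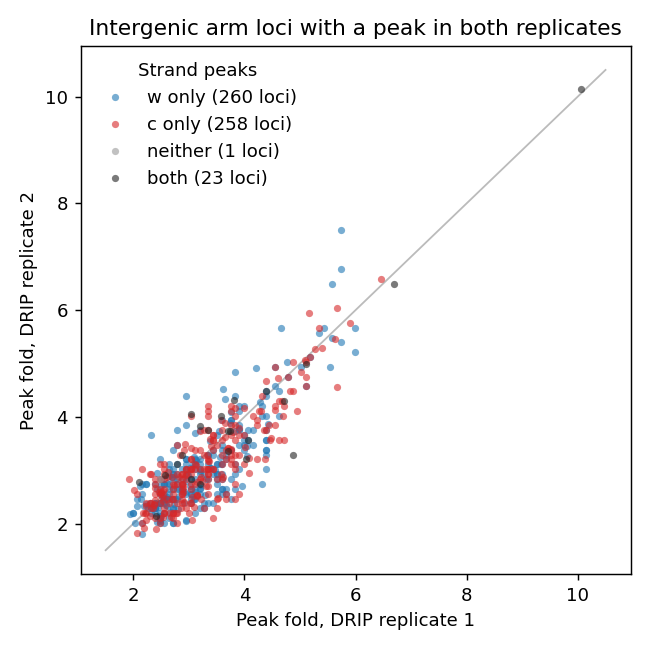
Peak fold in DRIP replicate 2 against that in DRIP replicate 1 for the 542 intergenic arm loci with a member in both, coloured by the strand lists that overlap the locus; the line marks equal folds. Most loci lie below a fold of 5 in both replicates, and a single locus overlapped by both strands lies near 10 in each.

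By an overlap of 1 bp, nearly every intergenic arm peak lay on a single strand. Among replicate 1 members 383 (48.9%) overlapped the w list alone, 367 (46.8%) the c list alone, 28 (3.57%, 2.48 to 5.11) both and 6 (0.765%) neither. The shares over all replicate 1 peaks were 44.9% w only, 44.3% c only, 9.78% both and 1.03% neither. Among replicate 2 members 294 (48.4%) overlapped w only, 282 (46.4%) c only, 19 (3.125%, 2.01 to 4.83) both and 13 (2.14%) neither, against 44.2%, 43.6%, 10.9% and 1.32% of all replicate 2 peaks. The w share lay above that of all peaks by slightly more than its interval in both replicates (45.4 to 52.3 in replicate 1 and 44.4 to 52.3 in replicate 2), while the intervals of the c share held that of all peaks. Both shares were higher than over all peaks, since fewer members met both strands. Among members on 1 strand, w held 383 of 750 in replicate 1 and 294 of 576 in replicate 2. Over all such peaks w held 50.3% in each replicate, so members showed no clear lean to w. The share with both strands was well under that of all peaks, with intervals that do not reach it.

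The low share with both strands set these peaks apart from pericentromeric intergenic peaks more than from gene peaks. In replicate 1, 9.21% (8.88 to 9.54) of arm peaks in genes, 6.43% of arm peaks within 1 kb of a gene and 22.9% (21.1 to 24.7) of pericentromeric intergenic peaks met both strand lists. The replicate 2 shares were 10.2%, 7.71% and 26.6%. Both replicates gave the same order of classes, and the intergenic arm interval overlapped none of the others. Among members, arm peaks in genes and pericentromeric intergenic peaks, those of 500 bp or more met both strands most often, and few members are that wide, so the shares were also read at equal width. From 200 to under 300 bp the share was 1.43% (0.487 to 4.12) of replicate 1 members against 5.31% (4.81 to 5.86) of arm gene peaks and 35.8% of pericentromeric intergenic peaks. In replicate 2 it was 1.66% against 6.21% and 36.8%. Under 150 bp, members and gene peaks were alike, with 0.810% against 0.825% in replicate 1 and 2.78% against 2.33% in replicate 2. At 500 bp or more the members' share was 24.5% (14.6 to 38.1) in replicate 1 and 15.4% (7.25 to 29.7) in replicate 2, and the gene peaks' shares of 28.2% and 24.6% lay within those intervals. The difference from gene peaks is therefore clear of counting error at some widths only, while that from pericentromeric intergenic peaks held from 150 to under 500 bp in both replicates.

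**Figure D3:**
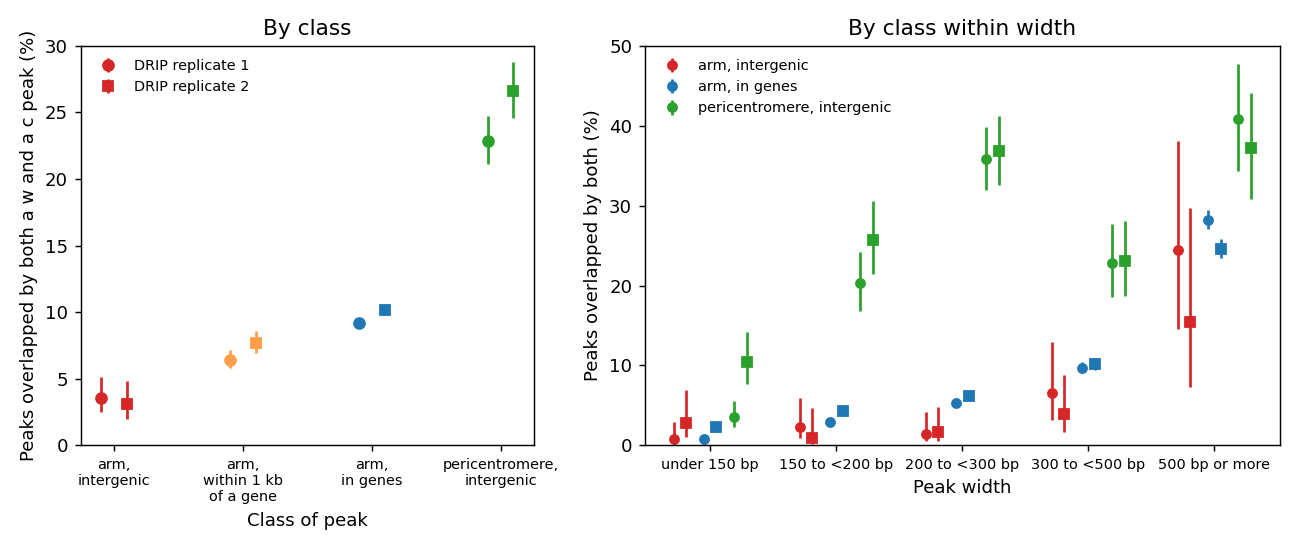
Share of DRIP peaks overlapped by both a w and a c peak (percent) by class of peak (left) and by class within width (right); circles are replicate 1, squares replicate 2 and bars 95% Wilson intervals. Intergenic arm peaks lie at 3.57% and 3.125%, below the other classes, and pericentromeric intergenic peaks lie above both arm classes in each width class.

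Where a member met both strands, the strand peaks usually overlapped each other. This was so for 19 of the 28 members of replicate 1 and 14 of the 19 of replicate 2. The w peak began at the lower coordinate in 12 and 8 of them and the c peak in 16 and 11, so neither order prevailed. Their median width was 421 bp in replicate 1 and 344 bp in replicate 2, wider than the median member. The same counts were not made over all peaks that met both strands, so they do not set members apart from peaks at large.

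The strand of an intergenic peak matched that of the nearest gene about as often as neighbouring peaks shared one, but not beyond 2 kb. Where a member and the peaks of its nearest gene each lay on 1 strand, 227 of 351 members of replicate 1, or 64.7% (59.5 to 69.5), were on the gene's strand, and 176 of 270 of replicate 2, or 65.2% (59.3 to 70.6). Neighbouring peaks at large, less than 5 kb apart, shared a strand in 66.2% of pairs in replicate 1 and 66.1% in replicate 2. That background pairs peaks with peaks and not with genes, but the members' shares were near it. At 1 to 1.5 kb from the gene the share was 70.5% (63.7 to 76.6) in replicate 1 and 69.4% in replicate 2. At 1.5 to 2 kb it was 65.2% and 70.1%. Over 2 kb it was 48.6% (37.4 to 59.9) in replicate 1, with 35 of 72 peaks, and 49.2% in replicate 2, with 29 of 59. Peaks outside the rule, 0.25 to 0.5 kb and 0.5 to 1 kb from a gene, had shares of 73.0% and 73.7% in replicate 1, close to those at 1 to 1.5 kb. At 1 to 250 bp the share was 93.3% and 94.6%, but there a single strand peak can span both the gene and its neighbour. The strand compared is that of the peaks, as the gene table holds no direction of transcription.

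The side on which the nearest gene lay was also reflected in the strand. Of all peaks met by a single strand list, 50.3% were on w in each replicate. Of replicate 1 members whose nearest gene lay at lower coordinates, 167 of 386 single-strand peaks were on w, or 43.3% (38.4 to 48.2), and with the gene at higher coordinates 216 of 364 were, or 59.3% (54.2 to 64.3). In replicate 2 the shares were 42.7% (37.1 to 48.4) and 59.3% (53.6 to 64.8). The side with the higher w share was the same on each of the 5 chromosomes in both replicates. The replicates share the strand lists, so they do not test this independently of each other.

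Among the members this pattern was clear of counting error only at 1 to 1.5 kb from a gene, with the same order at 1.5 to 2 kb. Close to genes the pattern was opposite. At 1 to 1.5 kb the w share was 34.9% with the gene at lower coordinates and 60.2% with it at higher coordinates in replicate 1, and 36.8% and 62.0% in replicate 2. At 1.5 to 2 kb the shares were 51.5% (41.9 to 60.9) and 59.8% (49.6 to 69.2) in replicate 1 and 46.3% and 56.3% in replicate 2, with intervals that overlapped in both. Nearer than the rule allows, at 0.5 to 1 kb, it was 42.5% and 61.0% in replicate 1. Within 250 bp of a gene the order turned, at 56.3% and 46.2% in replicate 1 and 58.9% and 44.5% in replicate 2. Over 2 kb the sides were alike, at 56.3% and 57.4% in replicate 1 and 55.4% and 58.0% in replicate 2. Without the DRIP lists, the w and c lists taken by the same rule gave w shares of 46.2% and 56.7% over all distances.

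**Figure D4:**
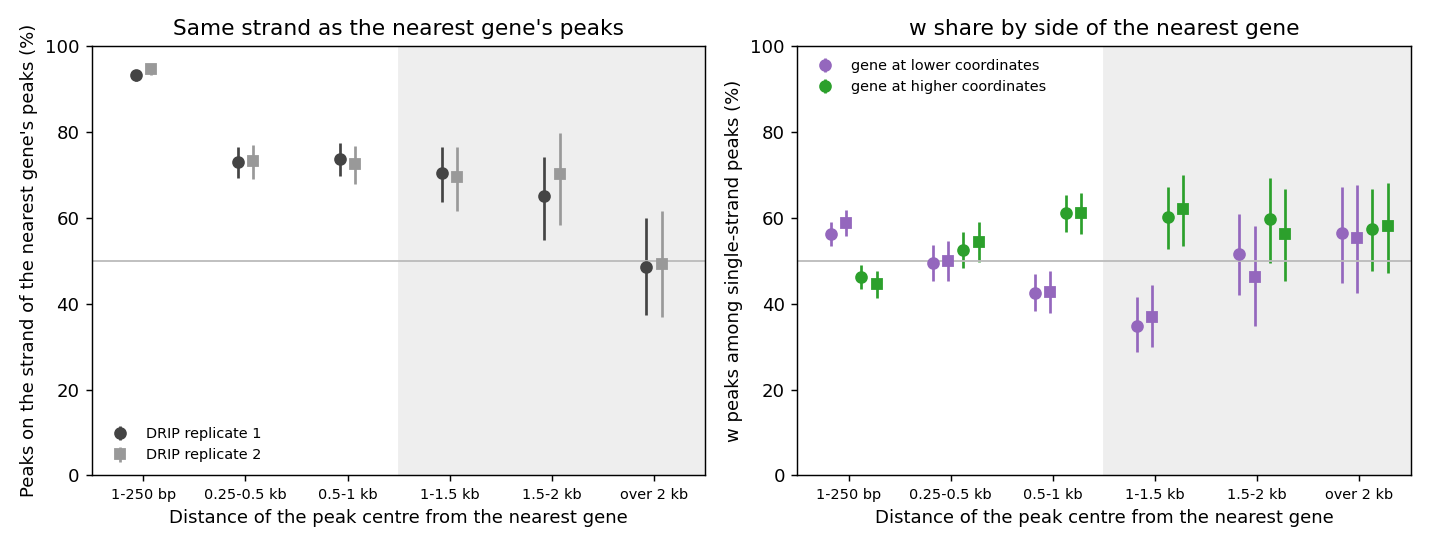
Left, the share of single-strand DRIP peaks on the strand of their nearest gene's peaks (percent) by distance from that gene; right, the w share among single-strand peaks by the side on which the nearest gene lies. Circles are replicate 1, squares replicate 2, bars 95% Wilson intervals, the grey line 50% and the shaded ranges the intergenic peaks described here; the share on the gene's strand falls to 48.6% and 49.2% over 2 kb, and the sides differ most at 1 to 1.5 kb.

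Many strand peaks in intergenic arm DNA had no DRIP peak over them. The rule selected 753 w peaks and 715 c peaks. Of these, 329 w peaks, or 43.7% (40.2 to 47.3), and 320 c peaks, or 44.8% (41.1 to 48.4), overlapped a DRIP peak of neither replicate. Over the whole lists the shares were 25.7% for w and 25.4% for c, and in pericentromeric intergenic DNA 23.5% and 21.3%. Arm strand peaks within 1 kb of a gene lay between, at 31.9% for w and 32.7% for c. The intergenic arm shares were the highest of these on both strands. The selected strand peaks were also weaker and narrower than their whole lists. Their median folds were 3.54 for w and 3.55 for c against 3.875 and 3.90, and their median widths 199 and 193 bp against 249 and 252 bp. The part that fold and width play in the share was not tested. The uncovered peaks had median folds of 3.09 for w and 2.97 for c, against 4.57 and 4.59 for those under a DRIP peak. Peaks of opposite strands rarely met: 21 of the w peaks (2.79%) overlapped a c peak and 18 of the c peaks (2.52%) a w peak, against 11.2% and 11.4% of the whole lists.

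The highest locus in both replicates lay at the end of chromosome 2 (19698029 to 19698256, 228 bp). Its fold was 10.0 in replicate 1 and 10.1 in replicate 2, with a w fold of 8.69 and a c fold of 10.1. It was the third highest peak of each whole DRIP list and the last peak on the chromosome in all 4 lists. Its one neighbour was AT2G48160, which the gene table also lists as HULK2, a gene related to the flowering regulator HUA2, at 1318 bp. The last peaks of the other chromosomes were not members and had replicate 1 folds of 2.15 (chromosome 1), 3.99 (chromosome 3), 4.55 (chromosome 4) and 2.55 (chromosome 5).

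The next locus lay on chromosome 2 (6415059 to 6415405), 2965 bp from ST4A, a sulfotransferase gene. Its fold was 6.70 in replicate 1 and 6.49 in replicate 2, with a w fold of 9.87 and a c fold of 2.67. These were the 2 loci among the first 15 that both strands met, and the other 13 lay on w only in 8 cases and on c only in 5. The third, on chromosome 5 (16681206 to 16681936), lay between the pseudogene AT5G41710 and AT5G41720, with folds of 6.46 and 6.58 and a c fold of 7.28. The fourth, on chromosome 4 (7424257 to 7424808), lay between AT4G12520 and AT4G12530 and had the highest c fold of the 15, 10.96, with DRIP folds of 5.90 and 5.76. These 3 loci gave almost the same fold in each replicate.

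The next loci are given with the named genes beside them. The locus between UCNL, an AGC kinase gene, and PLT1, a transcription factor gene of the root stem cell niche, lay on chromosome 3 (7292934 to 7293164) in a gap of 14001 bp. Its fold was 5.74 in replicate 1 and 6.77 in replicate 2, its w fold was 7.81, and no c peak met it. At 6605 bp from UCNL and 7397 bp from PLT1 it was also the locus farthest from any gene, and its gap held 3 loci in all, itself included, each with a member in both replicates. A locus 2608 bp from STY1, a regulator of style development and auxin synthesis, on chromosome 3 (18961342 to 18961642) had folds of 5.66 and 6.03 and a c fold of 10.52. A locus between GC5, a golgin candidate, and GL2, the homeodomain regulator of trichomes and root hairs, on chromosome 1 (30035087 to 30035529) had folds of 5.74 and 5.39 and a w fold of 8.94. Both had a single strand. A locus between RCD1, a stress regulator that binds transcription factors, and KAN2, which specifies the lower side of lateral organs, on chromosome 1 (11620179 to 11620436) had folds of 5.34 and 5.67 and a c fold of 9.04. A locus between AT3G50250 and CEJ1, a DREB-type transcription factor gene, on chromosome 3 (18631897 to 18632446) had folds of 5.63 and 5.45 and a c fold of 7.34. These genes identify the sites, and no group of genes was tested.

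The remaining loci among the first 15 were all on w. The locus between AT5G45230 and AT5G45240 on chromosome 5 (18311613 to 18311933) differed most between replicates, with folds of 5.74 and 7.498 and a w fold of 8.41. The others had smaller folds of 5.34 to 5.67 and w folds of 7.61 to 10.4. They lay beside the long noncoding RNA gene AT3G07155 (chromosome 3, 16716811 to 16717978), AT4G30770 (chromosome 4, 14987825 to 14989165), AT2G16005 (chromosome 2, 6962356 to 6963140), the pseudogene AT1G33785 (chromosome 1, 12253462 to 12253857) and UMAMIT41, a gene of an amino acid transporter family (chromosome 3, 10440868 to 10441298).

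**Figure D5:**
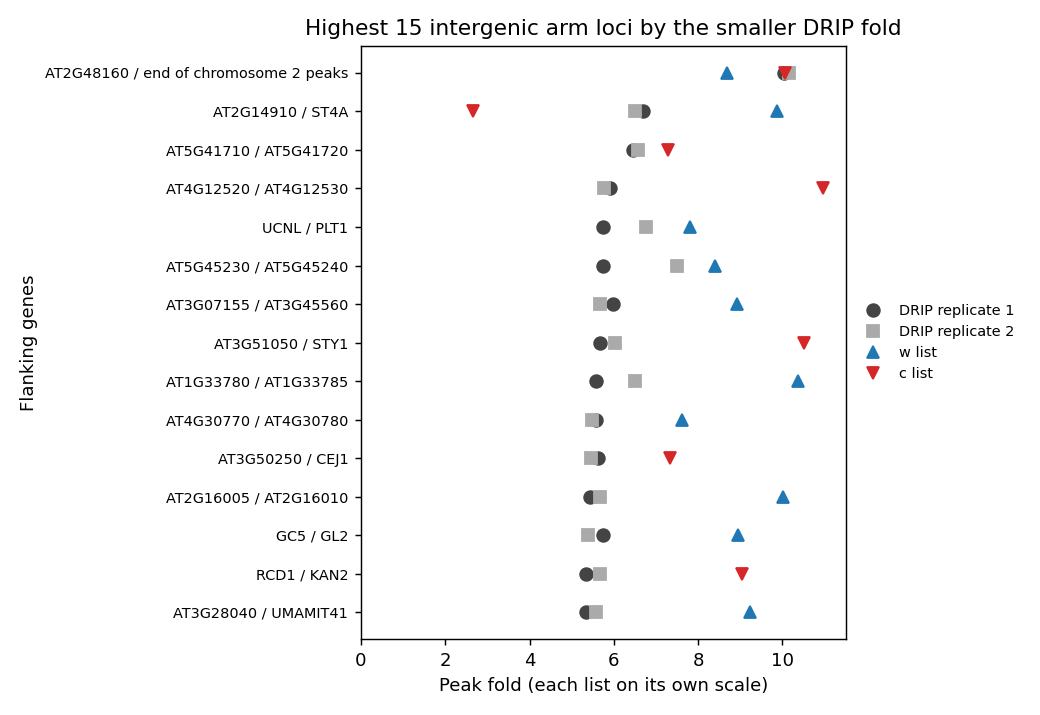
Peak fold in each of the 4 lists for the 15 intergenic arm loci with the highest smaller DRIP fold, named by the genes on either side; each list is on its own scale and a missing marker means no peak. The DRIP folds of the first locus are 10.0 and 10.1 and those of the others lie between 5.34 and 7.498, and 13 of the 15 loci carry a marker for 1 strand only.

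Of the 5 loci farthest from any gene, 4 had folds above the median of members in both replicates, the one between UCNL and PLT1 among them. The second farthest, 5838 bp from the pseudogene AT3G29265 on chromosome 3 (11225689 to 11226055), had folds of 4.31 in replicate 1 and 4.21 in replicate 2 and a w fold of 7.61. The fourth, 5361 bp from RALFL29, a signalling peptide gene, and 5499 bp from OSM34, an osmotin-like gene, lay on chromosome 4 (7031575 to 7031838), with folds of 4.47 and 3.57 and a c fold of 8.00. The fifth, between BLH1, a homeodomain gene, and EDA12 on chromosome 2 (15099425 to 15099809), had folds of 3.35 and 3.75 and a c fold of 5.92. These 3 loci were found in both replicates. The folds of the RALFL29 locus, and those of the BLH1 locus, differed by more than the median difference of 0.336 over loci in both. The third, in the gap of 15523 bp between NCED3, which encodes a rate-limiting enzyme of abscisic acid synthesis, and CID9, lay on chromosome 3 (4843848 to 4844064) and was found in replicate 1 only, with a fold of 2.15 and a c fold of 4.00. All 5 had a single strand.

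The widest locus spanned 1888 bp between AT1G34040 and AT1G34042 on chromosome 1 (12376637 to 12378524). Its folds were 3.81 in replicate 1 and 4.31 in replicate 2, with a w fold of 5.06 and a c fold of 6.43. A locus of 1319 bp beside IQD15, a gene of the calmodulin-binding IQD family, on chromosome 3 (18310057 to 18311375) had folds of 5.11 and 4.996, a w fold of 4.68 and a c fold of 3.85. A locus of 1290 bp between AT2G25760 and AT2G25770 on chromosome 2 (10990218 to 10991507) had folds of 4.81 and 4.48 and a c fold of 5.54. The other 2 of the 5 widest, beside AT4G30770 (1341 bp) and AT3G07155 (1168 bp), are among the 15 highest and lay on w only. Being wide thus did not always come with both strands, which met 2 of these 5.

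Loci met by both strands were ranked by the larger of their replicate folds, and the chromosome 2 end, ST4A and IQD15 loci came first. The fourth lay between the long noncoding RNA gene AT5G06345 and AT5G42640 on chromosome 5 (17085440 to 17086371), with folds of 4.87 and 3.29, a w fold of 7.66 and a c fold of 6.22. A further replicate 2 peak with a fold of 5.03 met this locus from outside the rule. The fifth lay between AT1G48010 and PMEI1, a pectin methylesterase inhibitor gene, on chromosome 1 (17713618 to 17714397), with folds of 4.71 and 4.30, a w fold of 8.55 and a c fold of 4.74. The w and c folds come from separate lists and are not set against each other.

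Loci met by neither strand list were 18 of the 841, and only 1 of them had a member in both replicates. That locus, 1609 bp from AT14A on chromosome 3 (10569083 to 10569403), had folds of 2.47 and 2.83. The highest of the others were in replicate 2 only: one between FQR1, a quinone reductase gene, and DFL1, an auxin-conjugating enzyme gene, on chromosome 5 (22129299 to 22129401) had a fold of 3.47. One beside PPX2, a protein phosphatase gene, on chromosome 5 (22415494 to 22415621) had a fold of 3.02. One between AT5G13810 and TBP1, a telomeric DNA-binding protein gene, on chromosome 5 (4458561 to 4458670) had a fold of 2.83. The highest seen in replicate 1 only lay beside GATA2, a transcription factor gene of light responses, on chromosome 2 (18581185 to 18581284), with a fold of 2.69. The 3 in replicate 2 were also the 3 highest of all loci seen in that replicate alone.

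The 3 highest loci seen in replicate 1 alone each had a fold of 3.43 and each met a strand peak. They lay beside AT1G59077 on chromosome 1 (21814171 to 21814355, c fold 6.22), between the microRNA genes MIR157a and MIR157b on chromosome 1 (24918216 to 24918333, w fold 5.01) and beside AT3G52800 on chromosome 3 (19567920 to 19568078, w fold 4.42). MIR157 microRNAs target SPL transcription factor genes, which time the change from juvenile to adult growth. No locus seen in a single replicate reached a fold of 4.

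The gene-free gap with the most loci lay on chromosome 1 between AT1G33780 and the pseudogene AT1G33785, with 7 loci over 4589 bp (12249269 to 12253857), 5 of them with a member in both replicates. From lower to higher coordinates, the first had a fold of 2.12 in replicate 2 only and met neither strand. The second had folds of 2.87 in replicate 1 and 2.29 in replicate 2 and a c fold of 5.48, and the third 4.36 and 3.76 with a c fold of 8.59. The fourth had folds of 3.59 and 3.11 with a w fold of 6.48. The fifth, in replicate 1 only, had a fold of 2.43 and a w fold of 3.68. The sixth had folds of 2.20 and 1.92 with a c fold of 2.95, and the seventh, one of the 15 highest, 5.57 and 6.49 with a w fold of 10.4. Strands thus alternated along the gap, from c to w, to c and to w again.

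Other dense gaps each held 4 loci. In the gap between AT3G27700 and AT3G27710 on chromosome 3 all 4 were on w (10263645 to 10268255). Their replicate 1 folds were 4.39, 3.67 and 2.72 for the first 3, and the fourth had a replicate 2 fold of 2.45. Between AT3G29260 and AT3G29265 (11217990 to 11226055) the first 2 were on c and the last 2 on w, with replicate 1 folds of 3.59, 3.19, 4.39 and 4.31. Between AT3G29252 and AT3G29255 (11205335 to 11207267) 3 were on c and 1 on w, and between AT3G44805 and AT3G44810 (16353057 to 16357323) 2 were on w, 1 on c and 1 on both.

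Loci less than 5 kb apart formed 29 runs of at least 3, with 100 of the 841 loci. The largest besides the chromosome 1 gap lay on chromosome 4 (14914218 to 14919318) over 2 gaps on either side of AT4G03275, with 5 loci, 4 on w and 1 on c, and folds from 1.75 to 4.28. A run of 4 loci on chromosome 1 (5965801 to 5971560), on either side of AT1G17410, lay wholly on w. Its replicate 1 folds were 4.39, 3.27, 2.63 and 2.23, and only the first 2 recurred in replicate 2.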

How the data were processed

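DRIP peak lists of 2 replicates and 2 strand lists (w and c) of 12-day-old seedlings were used. Reads were handled with CASAVA, BWA 0.7.12 and MACS2 on TAIR10, per the submitters' processing notes. Control library, parameters and pooling: not given in the sources used here. The deposited fold is a linear ratio of enrichment at the summit, and the deposited score ranks peaks for display. The −log10 values deposited for each peak, of its p-value and of its q-value, are from the authors' peak caller, and every peak had a q-value under 0.05. The deposited summit offset gave the summit. Depth is unknown.

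Genes were the 37899 nuclear genes of all types in the RefSeq TAIR10.1 table, which gives no strand. This release was joined to the TAIR10 peaks by position. The join was checked with shifts in steps of 50 bp up to 1000 bp, and the best shift was 0 bp in all 10 parts (replicate by chromosome). Printed coordinates count from 1 and are those of peaks. A list overlap is at least 1 bp, and a locus merges overlapping members. No genome sequence was used, so no sequence is printed and base composition was not run.

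Named loci are, by rule, the 15 with the highest smaller fold, the 5 widest, the 5 farthest from a gene, the 5 highest met by both strands and by neither, the 3 highest in 1 replicate alone, the 3 peaks on each side of the 1 kb limit, and the 5 densest gaps and runs. Runs are loci less than 5 kb apart, and several runs are the same loci as the gaps. Members, lists and comparisons were chosen with earlier results of these data known. The reading of strand by side and distance was chosen after seeing the data. Functions were tested on planted data. Alternatives changed the distance and centromere limits, the summit, fold, q-value, chromosome ends, overlap and replicates. Python 3.11.15, numpy 2.4.6, pandas 2.3.3, scipy 1.17.1 and matplotlib 3.10.9 were used.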

Additional observations from a re-analysis of the deposited data

How the results depend on the processing

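The number of loci in both replicates (542) was 1288 with a distance limit of 500 bp, 129 with 2 kb, 348 with a margin of 5 Mb and 233 with peaks in the upper 50% by fold. It lay between 501 and 541 with the summit, a q-value of 0.01, the outer 300 kb left out or a 50% overlap. The share on exactly 1 strand (95.2%) was 79.8% where 50% of both peaks had to overlap and 91.5% in the upper 50% by fold. With the 50% overlap it was 83.4% of members against 78.7% of all peaks in replicate 1, and 76.2% against 73.1% in replicate 2. In the upper 50% by fold it was 91.6% against 88.0% in replicate 1 and 91.4% against 87.0% in replicate 2. The near-total share on 1 strand thus depends on the 1 bp overlap. The median fold (2.87) was 2.88 with 500 bp, 2.90 with 2 kb, 2.88 with the summit, 2.83 with 5 Mb, 2.87 with a q-value of 0.01 and 3.59 in the upper 50% by fold. Coverage by members (2.08%) was 2.64% with 500 bp, 1.499% with 2 kb and 1.21% in the upper 50% by fold. The share with both strands (3.35%), a measure whose alternatives were chosen after seeing the data, was 2.72% with 2 kb, 2.85% with 5 Mb, 0.940% with a 50% overlap and 1.87% in the upper 50% by fold. It lay below that of all peaks under each alternative in both replicates. The share found again lay below that of all peaks except in replicate 2 with a 50% overlap (84.0% against 83.1%). The cause of these changes was not tested, but fewer or more peaks enter under most of them by construction. Leaving out a replicate gave 94.7% to 95.7% on 1 strand, a median fold of 2.86 to 2.87, a coverage of 1.89% to 2.28% and a both-strand share of 3.125% to 3.57%. Loci in both and the share found again need both lists and were not run without a replicate. No paired analysis was possible because the samples with peak lists form 1 group. Unknown depth, 2 replicates, strand lists recorded under replicate 1 and RNase H samples not analysed here limit all values.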

Other observations

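Gaps with a pseudogene on at least 1 side held more loci per kb than other gaps. The 480 such gaps held 131 loci, or 0.157 per kb of DNA beyond 1 kb from a gene, against 0.101 per kb in the 3185 gaps between protein-coding genes and 0.105 in the 956 other gaps. Their median lengths were alike, at 3209, 3113 and 3136 bp. Of those 131 loci 94 had a member in both replicates, against 335 of 546 between protein-coding genes and 542 of all 841 loci. The densest gap, beside AT1G33785, and those beside AT3G29252 and AT3G29265 are of this kind. The gaps were not split by distance from the centromere position. Intergenic arm coverage was 2.63% at 2.5 to 5 Mb from it and 1.94% beyond 10 Mb.

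Neighbouring single-strand members of the same gap were on the same strand in 93 of 136 pairs in replicate 1, or 68.4% (60.2 to 75.6), and in 58 of 83 pairs in replicate 2, or 69.9% (59.3 to 78.7). Neighbouring peaks at large shared a strand in 66.2% and 66.1% of pairs, but the classes of spacing went opposite ways. At 500 bp to under 5 kb the members' share was 75.9% (63.5 to 85.0) against 63.4% of all pairs in replicate 1 and 71.1% (55.2 to 83.0) against 63.6% in replicate 2. Under 500 bp it was 62.8% (51.7 to 72.7) against 71.7% in replicate 1 and 68.9% (54.3 to 80.5) against 71.9% in replicate 2. Only the wider spacing in replicate 1 lay outside its interval, by a narrow margin. Over loci of both replicates merged, 98 of 142 pairs shared a strand.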
